A study of Caenorhabditis elegans with 6 samples.

Results

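The *math* and *bath* genes of *C. elegans* are named for the MATH domain, a protein-binding fold first described in meprins and TRAF proteins. A *bath* gene pairs the MATH domain with a BTB domain, while a *math* gene carries the name of the MATH domain alone. In the best-studied pairing of the 2 domains, MEL-26, the BTB domain binds the cullin CUL-3, the MATH domain holds the substrate, and the ligase then marks that substrate with ubiquitin. MEL-26 in this way brings the microtubule-severing protein MEI-1 to destruction once the oocyte divisions are over. Most *math* and *bath* genes have no assigned substrate, and both families have expanded in worms into tandem arrays of related copies and pseudogenes.

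Genes were included by symbol, *math-* or *bath-* followed by a number, which gave 92 of the 46772 genes counted. Of these, 43 were BATH genes, 7 of them pseudogenes, and 49 were MATH genes, 12 of them pseudogenes. Founders of the pathway with other names, such as *mel-26*, were outside this rule and are described separately. Gene positions refer to genome build WBcel235.

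RNA was sequenced from dissected gonads of young adults in 6 libraries, 3 from wildtype animals (strain N2) and 3 from *set-2(bn129)* animals, which carry a loss-of-function allele. SET-2 is the catalytic subunit of the SET1/COMPASS complex, which methylates lysine 4 of histone H3 at promoters. The mutants were homozygotes born to heterozygous mothers, which still carried a wildtype copy of the gene. Each sample pooled gonads of several animals, and only the portion distal to the bend of the gonad arm was used, which holds mitotic germ cells and germ cells in meiotic prophase. The total count per library was between 23403396 and 30724547. The *set-2* gene itself was lower in the mutant libraries, at 2247 to 2554 normalized counts against 3829 to 4134 in wildtype, in the direction of the labels. The 9 germline markers examined were all detected and summed to 3312 to 3556 counts per 1000000 counts of the scaled library (CPM) in wildtype and 3255 to 3557 in *set-2(bn129)* libraries. Single markers did differ at an adjusted p of at most 0.05 by edgeR's quasi-likelihood test. *him-3* was higher (log2 fold change 0.39), and *gld-1* (-0.23) and *pgl-3* (-0.15) were lower.

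Most BATH genes were detected in the dissected gonads and most MATH genes were not. A gene was called detected where every library of a genotype held at least 10 counts. In wildtype gonads 34 of the 43 BATH genes (79.1%) and 3 of the 49 MATH genes (6.12%) were detected, the 3 being *math-33*, *math-44* and *math-31*. The share was 18.8% over all genes counted, 42.1% over all protein-coding genes and 12.3% over all pseudogenes. BATH pseudogenes were detected almost as often as BATH coding genes, at 5 of 7 against 29 of 36, while 0 of the 12 MATH pseudogenes were detected. No library had more than 12 counts of any of the 46 other MATH genes, 12 MATH genes had 0 counts in all 6 libraries, and 31 never exceeded 3 counts in a library. Among BATH genes these numbers were 2 and 6. The *set-2(bn129)* gonads gave the same list with 1 exception, *math-31*, which held 11, 3 and 13 counts in replicates 1, 2 and 3 and so fell short in the second. For *math-31* the wildtype libraries held 10, 16 and 14 counts, close to the limit as well. A count of 0 shows only that no read was counted at this depth, after reads with a mapping quality under 10 were removed. That removal can also lower the counts of near-identical copies. Transcripts of tissues next to the gonad were also present in wildtype libraries, such as *unc-54* of body wall muscle at 19.5 CPM per kb of exon and *vit-6* of intestine at 35.7. Which cells gave the BATH counts was not tested.

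Other large families of adaptor-like genes were detected less often than the BATH genes. In wildtype gonads 53 of 222 *fbxa* genes (23.9%), 5 of 113 *fbxb* genes (4.42%) and 15 of 56 *fbxc* genes (26.8%), all F-box families, and 7 of 22 *btb* genes (31.8%) were detected. The MATH share was closest to that of the *fbxb* genes. The differences between families were not tested.

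**Figure D1:**
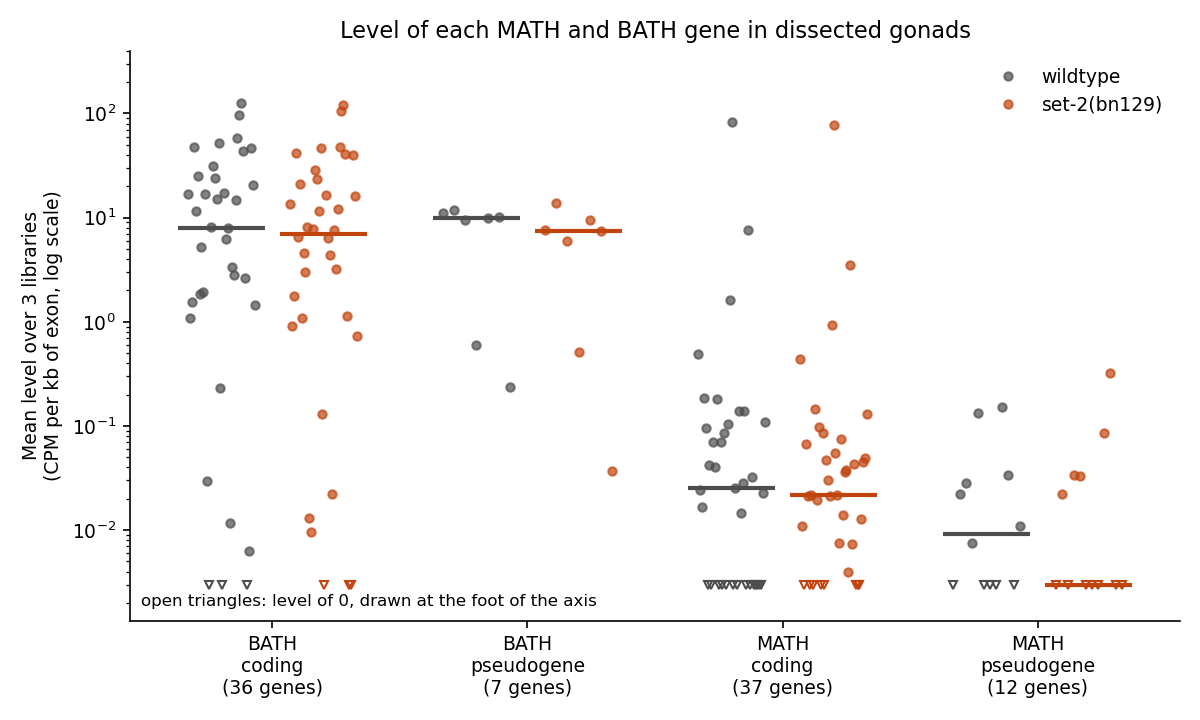
Mean level of each of the 92 genes over the 3 libraries of a genotype, in CPM per kb of exon on a log axis, for BATH and MATH coding genes and pseudogenes. Points are genes, bars are medians, and open triangles mark a level of 0. BATH genes of both kinds lie mostly between 1.08 and 126, and MATH genes, other than *math-33*, *math-44* and *math-31*, at or below 0.495 in wildtype.

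Levels of different genes were compared as CPM per kb of exon. The 34 detected BATH genes had a median wildtype level of 11.7, ranging from 1.08 to 126, against a median of 19.7 over all genes tested. The highest was *bath-42* (III:8161455-8163383), at 126 ± 7.79 (SD, n = 3), above 92.4% of tested genes. It was followed by *bath-41* (III:6720415-6722258) at 96.0 ± 4.22, *math-33* (V:11113907-11118824) at 82.5 ± 2.25, *bath-40* (I:14647782-14651288) at 57.7 ± 1.80 and *bath-30* (II:3345218-3346378) at 52.2 ± 1.47. Each step in this order was larger than the SDs on either side of it. *math-33* encodes the worm orthologue of the mammalian deubiquitinase USP7, and it held nearly all MATH counts. Summed over the MATH genes, the CPM of a wildtype library was 348.4 to 365.3, of which 9.58 to 10.9 remained without *math-33*. The BATH genes summed to 988.5 to 1008.

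Members standing alone had higher levels, in the median, than members in arrays. Of the 92, 18 had no other member within 50 kb, and the 10 of these that were tested had a median wildtype level of 45.6 CPM per kb. The other 74 members lay in 6 groups, and their 27 tested genes had a median of 11.1, with a highest level of 52.2. The ranges overlapped, since the lowest tested gene standing alone, *bath-45*, was at 2.65.

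The comparison of genotypes asked which of these genes were misregulated in *set-2(bn129)* gonads. Of the 37 members with enough counts to be tested, 19 were lower and 2 were higher in *set-2(bn129)* gonads by edgeR's quasi-likelihood test at an adjusted p of at most 0.05. Over all genes tested, 21.1% were lower and 20.3% higher at this threshold, and among the members 51.4% and 5.41%. Asking in addition for a log2 fold change of at least 0.58, a 1.5-fold change, left 8 lower (21.6%) and 1 higher (2.70%), beside 8.36% and 6.99% of all genes. The log2 fold change was below 0 for 30 of the 37, with a median of -0.21 against -0.0009 over all tested genes. The summed CPM of BATH genes went from 988.5 to 1008 in wildtype to 906.3 to 928.7 in *set-2(bn129)* libraries, with no overlap. Summed CPM of MATH genes without *math-33* was 9.58 to 10.9 and 5.22 to 6.48, mostly from 1 gene. Without *math-44* as well it was 3.00 to 4.04 and 2.31 to 2.98. In pooled tissue, fewer cells of a type and less RNA per cell cannot be told apart.

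**Figure D2:**
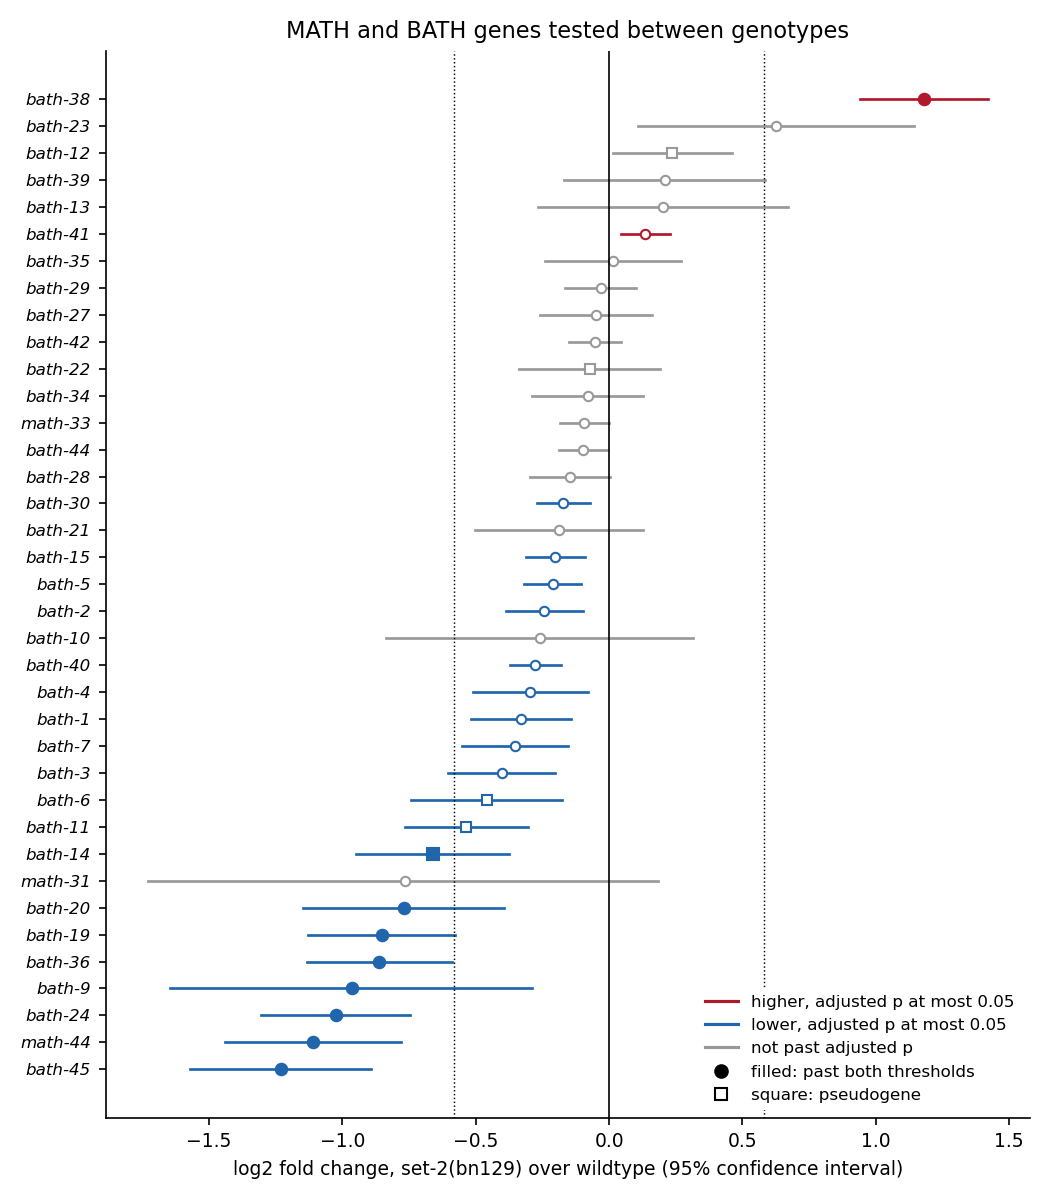
Log2 fold change of *set-2(bn129)* over wildtype with its 95% confidence interval for the 37 tested members, ordered from highest to lowest. Colour marks the adjusted p, filled symbols pass both thresholds (dotted lines at 0.58 in either direction), and squares are pseudogenes. One filled point, *bath-38* at 1.18, lies on the right, and 8 lie on the left, down to *bath-45* at -1.23.

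*bath-38* (II:10042780-10045270, minus strand) was the 1 member that rose past both thresholds. It had 149, 127 and 144 normalized counts in wildtype replicates 1, 2 and 3 and 332, 313 and 308 in the *set-2(bn129)* replicates. Every mutant library was above every wildtype library, a 2.27-fold difference (log2 fold change 1.18, SE 0.11, adjusted p 1.7e-05). *bath-23*, at an adjusted p of 0.052 here, joined it without wildtype replicate 1, with upper quartile scaling and with a minimum of 10 counts in every library, giving 2 such members, and *math-43* was the third with no low count filter. The exons of *bath-38* overlap those of the annotated gene F52H3.11 on the same strand, which was not among the genes counted. Whether any reads counted for *bath-38* came from F52H3.11 was not tested. *bath-45* (II:13123020-13125189), also a gene standing alone on chromosome II, moved the other way, with 128, 129 and 116 normalized counts in wildtype and 54.3, 54.2 and 50.5 in *set-2(bn129)*. This was the strongest decrease among the tested members, 2.35-fold, with no overlap (log2 fold change -1.23, SE 0.16, adjusted p 0.00013). The only other member higher by the adjusted p, *bath-41*, had 3599, 3587 and 3874 normalized counts in wildtype and 4187, 3966 and 3999 in *set-2(bn129)*. The groups did not overlap but lay close, and the difference was 1.10-fold (log2 fold change 0.14, SE 0.04, adjusted p 0.022), a call that was lost when any 1 of 3 libraries was left out (0.11 to 0.12 on the log2 scale without wildtype replicate 1, wildtype replicate 2 or *set-2(bn129)* replicate 1). Its exons overlap those of F37A4.3 on the other strand, which held 1 to 6 counts in a library.

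The next decreases came from an array on chromosome II. *math-44* (II:1989310-1990535) had 203, 171 and 156 normalized counts in wildtype and 90.2, 75.0 and 80.2 in *set-2(bn129)*, a 2.16-fold fall (log2 fold change -1.11, SE 0.15, adjusted p 0.00022). *bath-24* (II:2044619-2045605) had 354, 393 and 326 in wildtype and 194, 145 and 187 in *set-2(bn129)*, 2.04-fold lower (log2 fold change -1.02, SE 0.13, adjusted p 0.00012). In both genes all mutant libraries lay below all wildtype libraries. The neighbours *bath-19*, *bath-20* and *bath-14* of *bath-24* fell as well. *bath-19* (II:2035695-2039388) went from 346, 485 and 390 to 218, 239 and 219 (log2 fold change -0.85, adjusted p 0.00035). *bath-20* (II:2040276-2042547) went from 82.5, 102 and 89.3 to 49.5, 55.2 and 55.4 (log2 fold change -0.77, adjusted p 0.0044). The pseudogene *bath-14* (II:2048061-2049175) went from 252, 216 and 202 to 152, 127 and 143 (log2 fold change -0.66, adjusted p 0.0021). None of these genes had overlapping groups. For any member past the adjusted p, with 3 libraries of each genotype, such a separation was likely from the selection alone.

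The last pair of members past both thresholds lay away from this array. *bath-36* (V:15187888-15189588), a single gene, had 348, 319 and 307 normalized counts in wildtype and 200, 189 and 150 in *set-2(bn129)*, 1.81-fold lower (log2 fold change -0.86, SE 0.12, adjusted p 0.0003). *bath-9* (II:3377089-3378834) had 59.2, 36.1 and 28.7 in wildtype and 21.3, 17.7 and 24.0 in *set-2(bn129)*. Its groups did not overlap, but wildtype replicate 1 stood above the other libraries, and the call (log2 fold change -0.96, SE 0.31, adjusted p 0.026) was lost without that library, at -0.61 and an adjusted p of 0.12. It was also lost with DESeq2 (-0.97, adjusted p 0.059), without *set-2(bn129)* replicate 1 (-0.97, adjusted p 0.071) and without *set-2(bn129)* replicate 2 (-0.86, adjusted p 0.093). The exons of *bath-9* also overlap those of Y49F6C.2 on the same strand, which held 0 to 2 counts in a library.

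**Figure D3:**
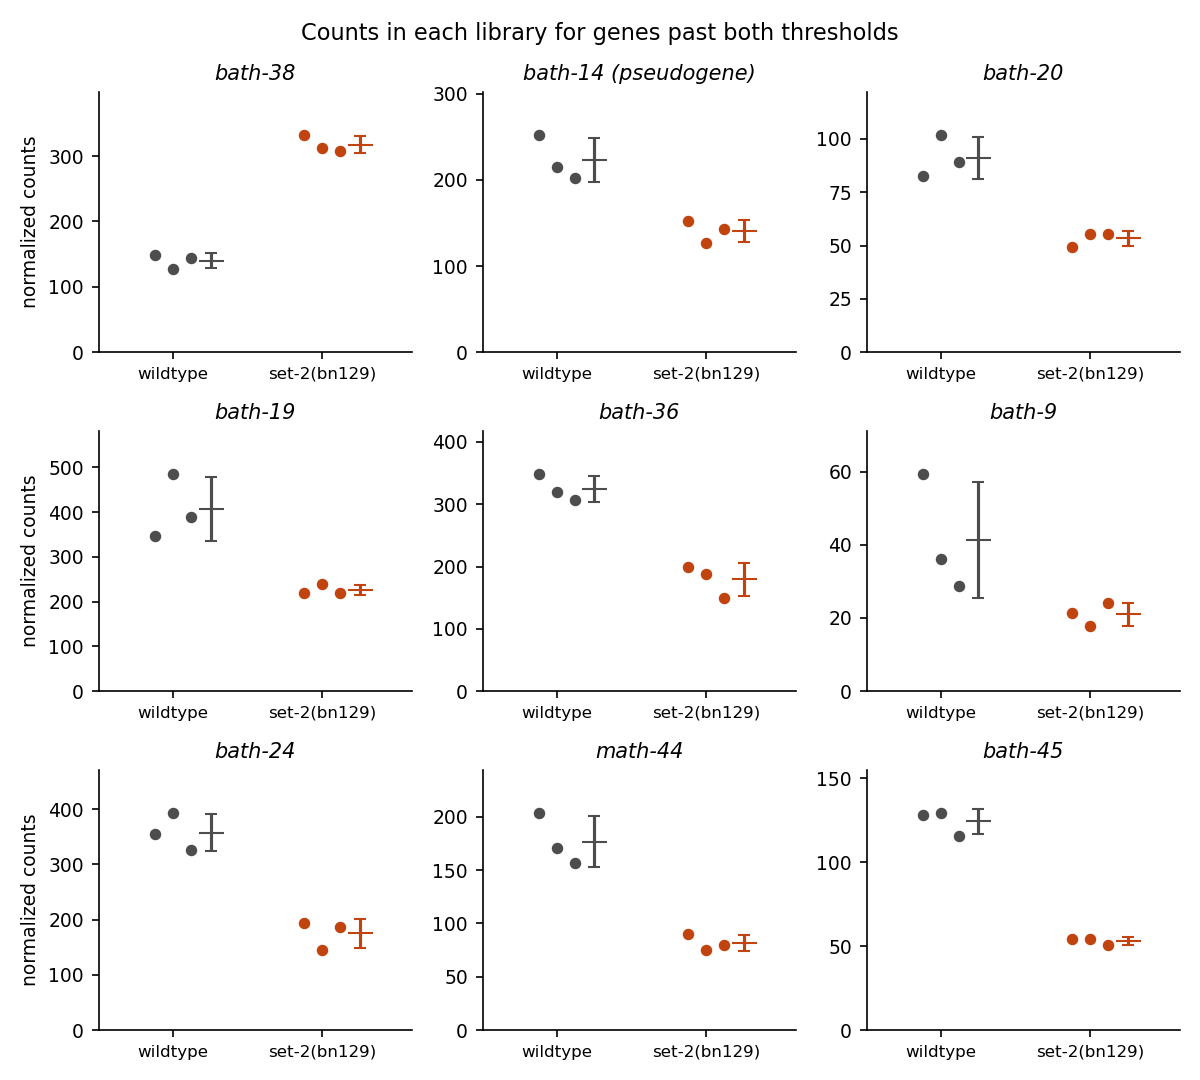
Normalized counts in each library for the 9 members past both thresholds, on linear axes from 0. Points are libraries, horizontal bars are means, and error bars are the SD of 3 libraries. The wildtype and mutant points do not overlap in any panel, and the smallest gap is that of *bath-9*, between 28.7 and 24.0. Picking genes by both thresholds favours such separation, and its share over all genes tested was not counted.

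A further 11 BATH genes were lower by less than 1.5-fold. They were the pseudogenes *bath-11* (log2 fold change -0.54) and *bath-6* (-0.46) and the coding genes *bath-3* (-0.40), *bath-7* (-0.35), *bath-1* (-0.33), *bath-4* (-0.30), *bath-40* (-0.28), *bath-2* (-0.24), *bath-5* (-0.21), *bath-15* (-0.20) and *bath-30* (-0.17). The call of *bath-4* was lost with DESeq2 and without wildtype replicate 1, wildtype replicate 2, *set-2(bn129)* replicate 2 or *set-2(bn129)* replicate 3, at adjusted p between 0.054 and 0.12 (log2 fold change -0.32 to -0.21). That of *bath-2* was lost without *set-2(bn129)* replicate 3 (-0.21, adjusted p 0.051). *bath-40*, the fourth highest member, had 2151, 2285 and 2190 normalized counts in wildtype and 1766, 1798 and 1900 in *set-2(bn129)*, 1.21-fold lower (SE 0.04, adjusted p 0.00055). *bath-30* had 1329, 1390 and 1400 against 1189, 1231 and 1236, a 1.13-fold difference (SE 0.05, adjusted p 0.011).

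The 16 members that did not pass the adjusted p included 2 of the 3 highest. *bath-42* had 5352, 5300 and 5915 normalized counts in wildtype and 5379, 5248 and 5349 in *set-2(bn129)*, and its 95% confidence interval on the log2 scale ran from -0.15 to 0.05 (adjusted p 0.37). *math-33* had 8687, 9127 and 9092 against 8081, 8344 and 8794, with an interval of -0.19 to -0.0009 (adjusted p 0.097). The 3' end of *math-33* overlaps *scb-1* on the other strand, which rose (log2 fold change 1.54, adjusted p 4e-06) and held 103 to 473 counts in a library. Reads of the 2 genes in the overlap may not have been told apart. *bath-23* (II:3371310-3372145), which RefSeq lists as a pseudogene and Ensembl as coding, lay just outside the threshold at 43.4, 25.2 and 40.4 against 59.2, 51.1 and 57.9 normalized counts (log2 fold change 0.62, SE 0.24, adjusted p 0.052). *math-31*, with few counts, had a log2 fold change of -0.76 and an interval from -1.73 to 0.18. The members not tested have no fold change in this fit. Calls for some of them in a fit with no low count filter are given with the alternatives.

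The arrays differed in how many of their members were detected. Chromosome II held 79 of the 92 members, 33 BATH and 46 MATH. The main array, II:1763372-2049175, spanned 285.8 kb and held 52 members, 14 BATH and 38 MATH, when members up to 50 kb apart were joined. Its first 27 members were all MATH genes, and none was detected, with at most 11 counts in a library. The remaining 136.7 kb (II:1912450-2049175) held all 14 BATH genes and 11 MATH genes. All 14 BATH genes there were detected, and 2 of the 11 MATH genes, so that detected and undetected members stood side by side. No member was detected in 2 smaller groups, 5 genes at II:1577378-1606179 and 4 MATH genes at II:2099926-2155220. At II:3343731-3381403 7 of 8 BATH genes were tested, and at II:2514977-2524475 2 of 3.

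All 16 tested members of the main array had a log2 fold change below 0 (median -0.43), and 13 were lower by the adjusted p, 5 of them past both thresholds. Over all 9431 genes tested, 4722 were below 0 and 21.1% were lower by the adjusted p. The other 3 were *math-31*, *bath-22* (-0.07) and *bath-21* (-0.19). Outside it, 6 of 21 tested members were lower and 2 higher, with 14 below 0 and a median of -0.08. The count of 13 moved between 10 (without *set-2(bn129)* replicate 3) and 13 when 1 library was left out. The decrease was not limited to MATH and BATH genes. Between the first and the last tested member lay 11 tested genes of other kinds, all with a log2 fold change below 0 (median -0.78), and 7 of them were lower by the adjusted p. They included ZK250.2, the furthest from 0, at -1.75, the BTB-domain gene *btb-4* (-0.89) and the pseudogene *btb-3* (-0.87). In the array before the first tested member, *fbxb-97* was higher (1.22, adjusted p 5.7e-05). At II:3343731-3381403, by contrast, 2 of 7 tested members were lower, *bath-30* and *bath-9*. Whether the arrays differ from each other in this was not tested.

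**Figure D4:**
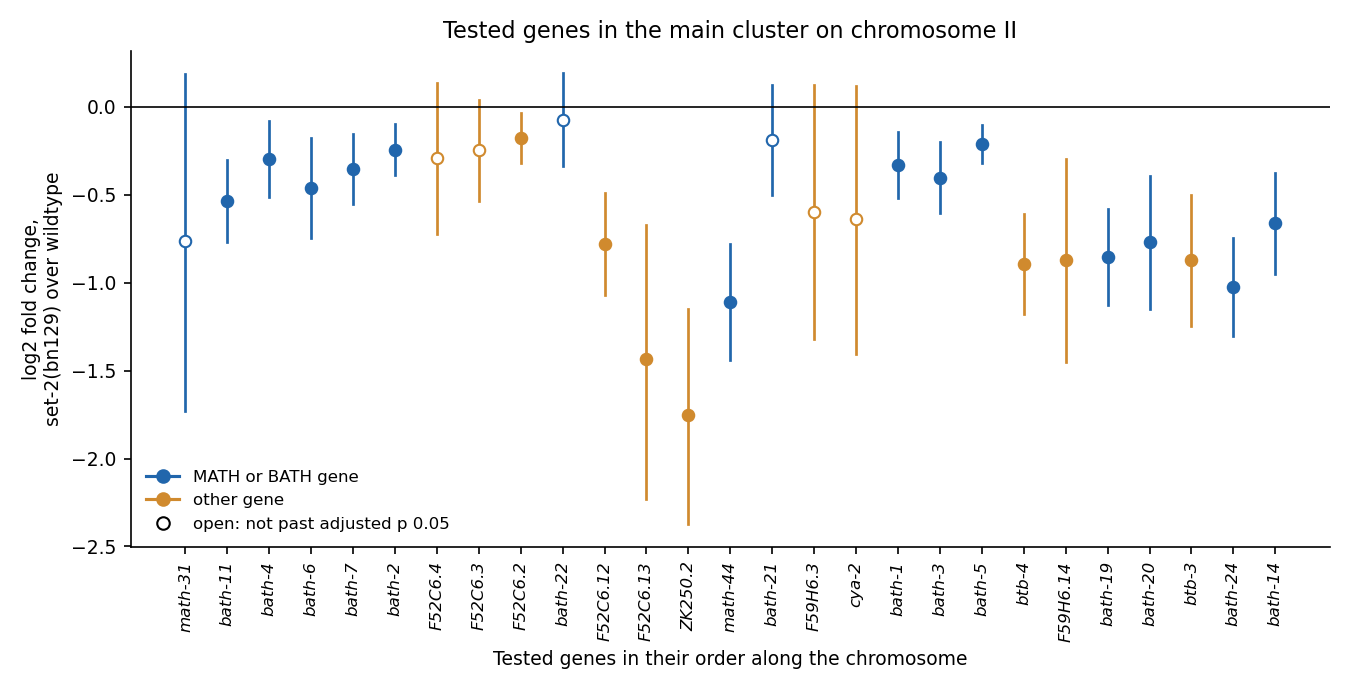
Log2 fold change of *set-2(bn129)* over wildtype with its 95% confidence interval for the 27 tested genes of the main array on chromosome II, from the first to the last tested member in chromosomal order. Blue points are the 16 MATH and BATH genes, orange points the 11 other genes, and filled points pass an adjusted p of 0.05. All 27 lie below 0, and 20 are filled.

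BATH pseudogenes were among the genes that fell. Of the 5 tested, *bath-14*, *bath-11* and *bath-6*, all in the main array, were lower and 0 were higher. Over all 288 pseudogenes tested, 24.0% were lower and 17.4% higher. The call of *bath-6* was lost without *set-2(bn129)* replicate 3, at -0.33 and an adjusted p of 0.057 by edgeR's quasi-likelihood test. The other 2 were *bath-22*, in the same array, and *bath-12* (0.24, adjusted p 0.083) at II:2514977-2524475. Summed over the 7 BATH pseudogenes, the CPM was 44.6 to 49.7 in wildtype and 37.5 to 40.6 in *set-2(bn129)* libraries. The authors removed reads of low mapping quality, which lowers the count of genes with near-identical copies and leaves the share that each copy gave uncertain. How many reads these arrays lost was not tested.

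Genes of the CUL-3 pathway, the setting in which MATH-BTB adaptors act, were counted in the same way. The list held 19 genes, all tested, of which 9 were higher (47.4%) and 4 lower (21.1%) by the adjusted p and 0 passed both thresholds (median log2 fold change 0.09). Over all genes 20.3% were higher and 21.1% lower, so the share of lower genes in the list was that of all genes. *cul-3*, the scaffold, was lower by 0.17 on the log2 scale (-0.17, adjusted p 0.0028), as was its adaptor *mel-26* (-0.23, adjusted p 0.0025). The other 2 lower genes were *dcn-1* (-0.38), which promotes the attachment of the ubiquitin-like NEDD8 to cullins, and *csn-4* (-0.16), a subunit of the COP9 signalosome. The 2 furthest above 0 were *ubc-12* (0.41), the NEDD8-conjugating enzyme, and *csn-5* (0.41), the signalosome subunit that removes NEDD8. The MEL-26 substrate *mei-1* was at 0.03 (adjusted p 0.44). *mel-26* was expressed at 123 CPM per kb in wildtype, a level reached among the members by *bath-42*.

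The F-box and *btb* families gave other counts under the same test. Of 61 *fbxa* genes tested 13 were higher and 15 lower, of 12 *fbxb* genes 5 and 0, of 15 *fbxc* genes 4 and 1, and of 7 *btb* genes 1 and 3. Only 5 *fbxb* and 53 *fbxa* genes were detected in wildtype gonads, against 12 and 61 in *set-2(bn129)* gonads. Some thus entered the test through their mutant counts, which favours higher calls in these 2 families. The *fbxa* shares, 21.3% higher and 24.6% lower, were near the 20.3% and 21.1% of all genes. The differences between families in these counts were not tested.

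Summed markers of somatic tissues and of sperm differed between the genotypes in the same libraries, to unlike extents. In summed CPM, body wall muscle markers were at 214.4 to 355.6 in wildtype and 152.6 to 174.2 in *set-2(bn129)*, with 8 of 9 lower by the adjusted p. Intestine markers were at 214.3 to 565.1 and 67.2 to 158.6 (6 of 6 tested lower). Pharynx muscle markers were at 10.9 to 34.2 and 0.85 to 1.51 (3 of 3 tested lower). Hypodermis markers were at 205.3 to 328.8 and 161.3 to 174.7 (2 of 3 tested lower, *lin-26* at 0.08 on the log2 scale). Neuron markers were at 69.7 to 74.4 and 66.6 to 69.0 (1 of 5 tested lower, *ric-4*). Most of that sum came from *snb-1*, which did not pass the adjusted p (log2 fold change -0.08). Sperm markers were at 0.206 to 0.255 and 1.41 to 2.35, nearly all of it from *spe-9*, which encodes a sperm surface protein. *spe-9* had 5.29, 6.56 and 5.32 normalized counts in wildtype and 54.3, 59.4 and 35.6 in *set-2(bn129)* (log2 fold change 3.09, adjusted p 5.6e-05). Of the other sperm markers, *msp-10*, *msp-142* and *ssp-9* had 0 counts throughout, and *msp-3* and *msp-31* had at most 1.06 normalized counts in a library. The part of these tissues in the decrease of BATH genes was not tested.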

How the data were processed

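RNA-seq of dissected gonads was analysed in 6 libraries, 3 wildtype and 3 *set-2(bn129)*, grouped by their labels. The authors prepared libraries depleted of ribosomal RNA, although 1 label calls the RNA polyadenylated, sequenced single reads of 50 bases, mapped them with STAR 2.4.1d to release WS254, removed reads with a mapping quality under 10 and deposited raw counts per gene from HTSeq 0.7.2. The strand setting and counting mode are not given in the sources used here. A deposited table holding only the authors' numbers of changed genes was not used. There were 0 rows without a gene. The total per library was 23403396 to 30724547 counts. Replicates differed by more than sampling noise (chi-square per degree of freedom 8.34 to 25.4). Nothing states that replicates came from separate cultures, so p-values measure the spread between these samples, which may be technical.

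The members and gene lists were chosen with earlier results of these data known. Symbols came from the reference gene table (73 members) or from RefSeq locus tags of the same build (19 members), and positions and exon lengths from the Ensembl annotation of WBcel235, not WS254. All genes were fitted with edgeR 4.0.16 in R 4.3.3 (filterByExpr, TMM scaling, glmQLFit and glmQLFTest, genotype as the only term), and p-values were adjusted by Benjamini-Hochberg over 9431 genes. Normalized counts are counts divided by the effective library size and multiplied by its mean. CPM is relative to the same effective library size (the total after TMM scaling). Confidence intervals are at 95% and cover the error of the fit. Every member past the adjusted p is named, and values per library are given for members past both thresholds and for the 5 highest in wildtype. Library values and fold changes of other members, of genes inside the main array and of genes whose exons overlap a member were chosen after their values were seen. Tried as alternatives were 2 other scalings (DESeq2 size factors and upper quartile), 2 other filters (none, or a minimum of 10 counts per library), DESeq2 1.42.0 as the test, the replicate number as a block, omission of each library, and a log2 threshold of 1. On simulated data of 9431 genes for this comparison, 81 of 100 genes changed by 1 on the log2 scale, 96 of 100 changed by 2 and 14 of 9056 unchanged genes tested were called. Far fewer genes were changed there than the 3908 called in the data, and no log2 change smaller than 1 was simulated. These shares therefore do not carry over to the smaller fold changes reported.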

Additional observations from a re-analysis of the deposited data

How the results depend on the processing

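Of the 21 members past the adjusted p, 16 stayed past it under all 12 alternative fits and 0 changed direction. *bath-2*, *bath-4*, *bath-6*, *bath-9* and *bath-41* lost the call under at least 1 of them. The count of members past both thresholds and higher was 2 with upper quartile scaling or at least 10 counts in every library and 3 with no low count filter, where *bath-23* and *math-43* joined *bath-38*. With no filter 78 members were tested and 4 were higher by the adjusted p, and *math-3*, *math-27*, *math-41* and *bath-8*, with 11 counts or fewer in each library, were added to the lower ones. Leaving out 1 library gave 1 to 2 higher by the adjusted p and 1 to 2 past both thresholds. For lower members it gave 17 to 19 and 6 to 9, and DESeq2 gave 17 and 7. *bath-14* fell short of the fold threshold without wildtype replicate 1 (log2 fold change -0.56). A log2 threshold of 1 left 3 lower. Replicate numbers did not pair the samples: the correlations of deviations between samples of the same number were -0.09, -0.05 and -0.17. With a replicate block the counts were 2 higher and 19 lower by the adjusted p, and 1 and 8 past both thresholds. The causes of these changes were not tested.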
